A study of Mus musculus with 16 samples.

Results

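The unfolded protein response of the endoplasmic reticulum (ER) was followed in mouse quadriceps muscle through 10 genes, Hspa5, Hsp90b1, Dnajb9, Dnajc3, Xbp1, Atf6, Herpud1, Edem1, Sdf2l1 and Pdia4. They were taken by symbol from a raw count table of 13320 genes, and all 10 were present. The RNA-seq libraries numbered 16, with 4 in each of 4 groups of male CD2F1 mice that were 8 weeks old when the experiment began. Splenic C26 mice received C26 cells, a mouse colon carcinoma line, in the spleen, a route that seeds the liver. Sham mice had the operation with saline alone. The subcutaneous C26 group carried the same cells under the skin, and the control group has no treatment named in the labels. Splenic C26 and sham libraries share one prefix in their titles, and subcutaneous C26 and control libraries share another, so each tumour group was set against the tumour-free group of its own prefix. Host muscle was sequenced whole, and the number of weeks between injection and collection is not given in the sources used here. Nothing in the labels ties each replicate to an animal of its own, and the p-values therefore describe scatter among libraries that could be technical.

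Proteins that enter the secretory pathway fold in the ER with the help of chaperones, and an excess of unfolded protein there starts the unfolded protein response. Its sensors sit in the ER membrane. IRE1 (encoded by Ern1) removes an intron from Xbp1 mRNA so that an active transcription factor can be made, ATF6 is cut in the Golgi to release another factor, and PERK (Eif2ak3) phosphorylates the initiation factor eIF2 alpha and so lowers protein synthesis while Atf4 mRNA is translated. The targets fall into chaperones (Hspa5, which encodes BiP, and Hsp90b1, which encodes GRP94), their cochaperones (Dnajb9, Dnajc3, Sdf2l1), a disulphide isomerase (Pdia4) and factors that send misfolded proteins to degradation (Herpud1, Edem1). In skeletal muscle the ER is largely shaped into sarcoplasmic reticulum, which also stores the calcium for contraction.

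Promoter sequences of the members are shown because the response is read through short DNA elements in them. The ER stress response element ERSE reads CCAAT, then 9 bases of any kind, then CCACG, and is bound by NF-Y at its first letters and by ATF6 or XBP1 at its last. ERSE-II reads ATTGG, 1 base of any kind and CCACG, and the element called UPRE here is TGACGTGG. Both strands were searched over 250 bases before to 50 bases after the start of 32851 promoters of 27025 genes from RefSeq, build GRCm38.p6. Of the members, 9 matched a promoter in that table, and Atf6 is named only. Capitals mark the matched letters in the stretches printed here, each given 5′ to 3′ on the strand of its gene.
Hspa5 (chr2:34772020-34772048, plus strand): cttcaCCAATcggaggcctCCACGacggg
Hsp90b1 (chr10:86705513-86705676, minus strand): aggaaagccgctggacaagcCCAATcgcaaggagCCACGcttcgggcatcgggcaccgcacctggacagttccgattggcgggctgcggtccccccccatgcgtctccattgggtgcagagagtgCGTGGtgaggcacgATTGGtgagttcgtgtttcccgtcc
Dnajc3 (chr14:118937807-118937865, plus strand): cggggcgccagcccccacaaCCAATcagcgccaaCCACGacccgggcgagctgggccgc
Herpud1 (chr8:94386357-94386407, plus strand): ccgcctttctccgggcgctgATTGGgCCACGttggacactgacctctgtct

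An exact ERSE was found in 3 of the 9 member promoters, those of Hspa5, Hsp90b1 and Dnajc3, and in 39 (0.119%) of all 32851 promoters searched. Hsp90b1 held 2 matches, one on each strand. The match in Hspa5 began 65 bases before the RefSeq start, inside the span that GENCODE gives the gene. ERSE-II was found in the Herpud1 promoter alone among the members, and in 12 (0.0365%) of all promoters. The UPRE letters were in 0 of 9 member promoters and in 222 (0.676%) of all. Motifs and members were both chosen as known parts of this response, so these shares are descriptions and test no link between them. No match of one motif overlapped a match of another. Edem1, Xbp1 and Dnajb9, which had the largest fold changes of the 10 genes in both tumour comparisons, held none of the 3 motifs as spelled out here, and neither did Sdf2l1 or Pdia4. With any 1 of the 10 fixed letters of the ERSE allowed to differ, a setting chosen after the exact matches were seen, 5 member promoters and 494 (1.5%) of all held it, Pdia4 and Herpud1 being added.

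**Figure D1:**
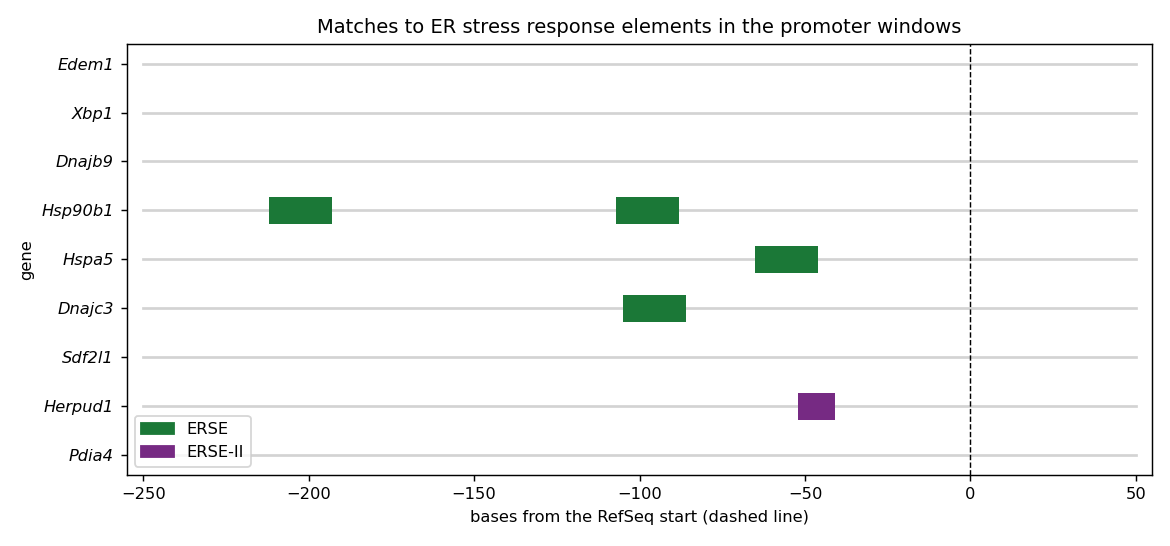
Positions of exact ERSE, ERSE-II and UPRE matches in the promoters of 9 members, as bases from the RefSeq start on the strand of the gene, from 250 before to 50 after. ERSE marks stand in Hspa5, Hsp90b1 (2 marks) and Dnajc3, an ERSE-II mark stands in Herpud1, and the other promoters hold no mark.

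Library totals were 25.9 to 34.9 M counts. On the first principal component, which held 65.4% of the variance of log2 CPM (read counts scaled to the size of the library), scores of sham and control libraries ran from -60.8 to -55.4. The nearest tumour libraries were splenic C26 replicate 1 at -6.31 and subcutaneous C26 replicate 3 at 6.003, while scores of 64.6 to 93.3 were found for the remaining ones. Muscle fibre markers, 10 of 10 measured, summed to 121691 to 276145 CPM over all libraries. Markers of several other cell types differed between tumour and tumour-free groups, not always in the same direction in both comparisons. Fibroblast markers summed to 404 to 1535 CPM in splenic C26, against 1936 to 2494 CPM in sham, and to 476 to 926 CPM in subcutaneous C26, against 1510 to 2735 CPM in control, with 9 and 7 of 10 lower by the test. Neutrophil and marrow markers summed to 19.2 to 2505 CPM in splenic C26, against 1.26 to 1.84 CPM in sham, where Camp, Ltf and Mpo were at 0, and to 23.3 to 446 CPM in subcutaneous C26, against 1.49 to 51.0 CPM in control, with 9 and 1 of 10 higher. Hepatocyte markers summed to 82.5 to 316 CPM in splenic C26, against 16.2 to 222 CPM in sham, and to 140.4 to 273 CPM in subcutaneous C26, against 89.8 to 312 CPM in control, with 7 of 10 higher in splenic C26 and 1 higher and 9 lower in subcutaneous C26. Without Cyp2e1, which the 16 libraries held at 15.7 to 315 CPM, the other 9 summed to 135 CPM in splenic C26 replicate 1 and 1.13 to 1.63 CPM in the other splenic C26 libraries, against 0.512 to 3.65 CPM in sham, and to 0.994 to 3.34 CPM in subcutaneous C26, against 29.7 to 233 CPM in control. Endothelial markers summed to 299.8 to 534 CPM in splenic C26, against 308 to 379 CPM in sham, with 6 of 10 higher and 1 lower, and to 238 to 311 CPM in subcutaneous C26, against 370.4 to 431 CPM in control, with 1 higher and 4 lower. Red blood cell precursor markers, 3 of 8 measured, summed to 11.6 to 46.0 CPM in splenic C26, against 4.04 to 5.72 CPM in sham, and to 8.60 to 131 CPM in subcutaneous C26, against 3.70 to 14.1 CPM in control, with 2 and 1 higher. Macrophage markers, 10 of 10 measured, had 1 higher and 1 lower in splenic C26 and 1 higher in subcutaneous C26. Of the plasma cell markers other than Xbp1, only Mzb1 was measured, at 0.574 to 2.59 CPM in splenic C26 and 0.415 to 0.892 CPM in sham. Markers of proliferating cells, 2 of 8 measured, summed to 0.582 to 9.92 CPM in splenic C26, against 1.66 to 2.61 CPM in sham. In subcutaneous C26 they summed to 0.952 to 61.4 CPM, against 1.25 to 9.91 CPM in control, and 0 passed the test. Their highest sums were in splenic C26 replicate 3, subcutaneous C26 replicate 4 and control replicate 1. Of 8 epithelial markers only Krt19 was measured, at 0.794 CPM or less in every library, and it was lower in subcutaneous C26. The part of these cells in the results was not tested, and in whole muscle fewer cells of a type and less RNA per cell cannot be told apart.

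In splenic C26 muscle 6 of the 10 genes rose relative to sham and 0 fell, at an adjusted p under 0.05 by edgeR's quasi-likelihood test with Benjamini-Hochberg adjustment over all 13320 genes. The 6 were Edem1, Xbp1, Dnajb9, Hspa5, Atf6 and Hsp90b1. Over all genes 28.1% rose and 23.9% fell in that comparison, so changed genes were common. In subcutaneous C26 muscle the same 6 genes and Dnajc3 rose relative to control, 7 of 10, and 0 fell, against 27.0% higher and 23.1% lower over all genes. The median log2 fold change of the 10 was 0.54 in splenic C26 against sham, beside -0.03 over all genes, and 0.51 in subcutaneous C26 against control, beside -0.02. Every library of the tumour group lay above every tumour-free library for 5 members in splenic C26 against sham, where 21.1% of all genes did so, and for 6 members in subcutaneous C26 against control, where 25.2% did. Herpud1, Sdf2l1 and Pdia4 passed the test in neither comparison. Leaving out splenic C26 replicate 1 and subcutaneous C26 replicate 3 together left 6 and 7 members higher, beside 32.5% and 31.0% of all genes. Another fit left out 4 libraries with transcripts of other tissues and had 6 and 6 members higher, beside 28.2% and 23.5% of all genes. The 4 were splenic C26 replicates 1 and 3, subcutaneous C26 replicate 4 and control replicate 1. Control replicates 2, 3 and 4 stayed in that fit, so liver transcripts remained in control. Their hepatocyte markers without Cyp2e1 summed to more than the 29.7 CPM of control replicate 1, with 233 CPM in control replicate 4. Upper-quartile scaling, which put the median of all genes at -0.24 and -0.26, left 5 and 3 members higher, beside 20.6% and 18.1% of all genes.

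**Figure D2:**
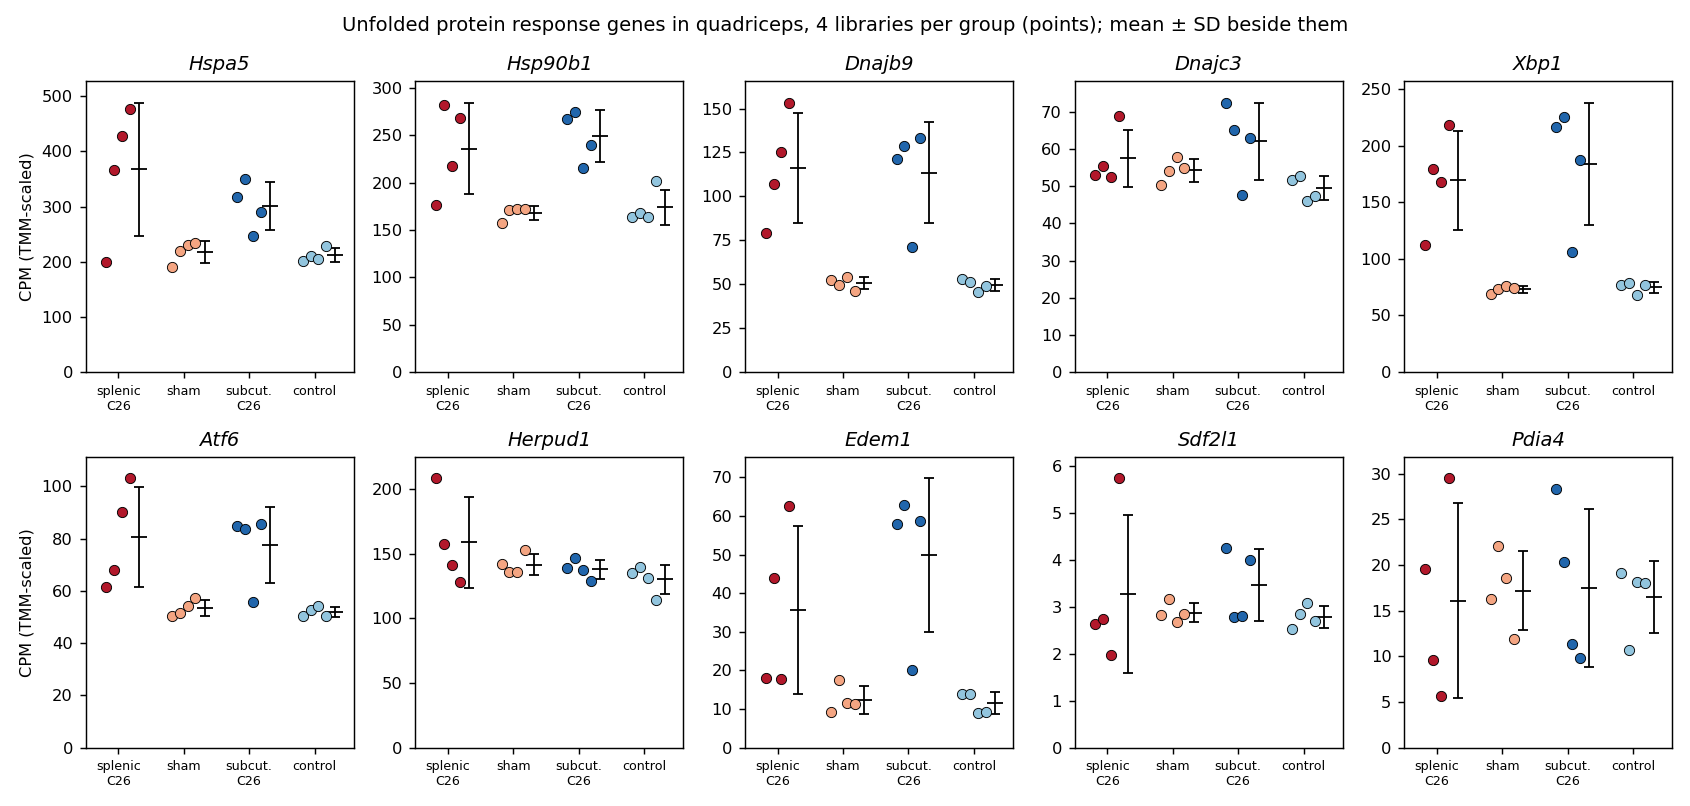
Level of each of the 10 genes in CPM (TMM-scaled, linear axis from 0) in every library, with splenic C26 left of sham and subcutaneous C26 left of control; points are libraries, and the mark beside them is the group mean with SD, n = 4. Xbp1 and Dnajb9 stand clear of the tumour-free libraries in both tumour groups, Edem1 does so narrowly in splenic C26 replicates 1 and 3, and Herpud1, Sdf2l1 and Pdia4 overlap with them.

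Of the transcription factors, Xbp1 (chr11:5520659-5525893, plus strand, mm10) had more than a doubling of its level in both tumour groups. Xbp1 stood at 112, 179, 168 and 219 CPM in splenic C26 replicates 1 to 4, against 68.6, 73.1, 76.1 and 74.4 CPM in sham. In subcutaneous C26 Xbp1 stood at 216, 226, 106 and 187 CPM, against 76.6, 78.5, 67.7 and 77.0 CPM in control. Splenic C26 replicate 1 and subcutaneous C26 replicate 3 were the lowest of their groups, yet above every tumour-free library. The log2 fold change of Xbp1 was 1.21 ± 0.21 (SE) in splenic C26 against sham (adjusted p = 0.000493) and 1.29 ± 0.21 in subcutaneous C26 against control (adjusted p = 0.000352). Counts per gene do not separate spliced from unspliced Xbp1 mRNA, so the activity of IRE1 is not read from this rise.

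Atf6 (chr1:170704674-170867771, minus strand), the membrane-bound precursor of the ATF6 factor, rose less. Its level was 61.6, 67.9, 90.0 and 103 CPM in splenic C26, against 50.6, 51.5, 54.2 and 57.4 CPM in sham. In subcutaneous C26 Atf6 was at 84.9, 83.8, 55.6 and 85.5 CPM, against 50.2, 52.5, 54.2 and 50.4 CPM in control. The groups did not overlap in either comparison, but subcutaneous C26 replicate 3 exceeded the highest control library only slightly. Atf6 had a log2 fold change of 0.59 ± 0.16 in splenic C26 against sham (adjusted p = 0.00741) and 0.58 ± 0.16 in subcutaneous C26 against control (adjusted p = 0.00888), and 0.34 with an adjusted p of 0.0532 in the second under upper-quartile scaling.

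Among the chaperones, Hspa5 (chr2:34771970-34777547, plus strand) encodes BiP, the Hsp70 of the ER lumen that also holds the sensors inactive. Hspa5 stood at 199, 367, 428 and 476 CPM in splenic C26, against 190.4, 219, 230.0 and 234 CPM in sham. In subcutaneous C26 it stood at 317, 349.7, 247 and 291 CPM, against 201, 210.0, 206 and 229 CPM in control. Splenic C26 replicate 1 lay within the sham range and the other 3 splenic C26 libraries above it, while all subcutaneous C26 libraries were above control. On the log2 scale Hspa5 changed by 0.75 ± 0.21 in splenic C26 against sham (adjusted p = 0.00740) and 0.51 ± 0.21 in subcutaneous C26 against control (adjusted p = 0.0493). The subcutaneous call lay at the threshold: it was lost in 16 of 26 alternatives, 12 of them the omission of 1 library, with adjusted p-values from 0.000382 to 0.205.

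Hsp90b1 (chr10:86690209-86705509, minus strand) encodes GRP94, the Hsp90 of the ER. Its exons partly overlap a pseudogene on the opposite strand, whose reads cannot be told apart without strand. They also overlap Gm15344 by 84 bases and the microRNA gene Gm25745 by 133 bases, both on the same strand. Hsp90b1 was at 176, 282, 218 and 268 CPM in splenic C26, against 157, 171, 172 and 172 CPM in sham. In subcutaneous C26 it was at 267, 275, 216 and 239 CPM, against 164, 168, 163 and 201 CPM in control. No tumour library overlapped with its tumour-free group, and the nearest was splenic C26 replicate 1. Hsp90b1 had a log2 fold change of 0.49 ± 0.15 in splenic C26 against sham (adjusted p = 0.0121) and 0.52 ± 0.15 in subcutaneous C26 against control (adjusted p = 0.00922). Under upper-quartile scaling these were 0.27 (adjusted p = 0.0806) and 0.28 (adjusted p = 0.0743).

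The 3 cochaperones differed from each other. Dnajb9 (chr12:44205559-44210326, minus strand) encodes ERdj4, a BiP cochaperone that also represses IRE1, and it was at 79.0, 107, 125 and 153 CPM in splenic C26, against 52.5, 49.8, 54.2 and 46.0 CPM in sham. In subcutaneous C26 Dnajb9 was at 121, 129, 70.9 and 133 CPM, against 53.2, 51.4, 45.5 and 48.8 CPM in control. Neither comparison had any overlap, and splenic C26 replicate 1 and subcutaneous C26 replicate 3 were again the lowest of their groups. Its log2 fold change was 1.20 ± 0.20 in splenic C26 against sham (adjusted p = 0.000365) and 1.19 ± 0.20 in subcutaneous C26 against control (adjusted p = 0.000388).

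Dnajc3 (chr14:118937976-118981697, plus strand) encodes p58IPK, a BiP cochaperone known to inhibit PERK. Its level was 53.0, 55.6, 52.6 and 68.8 CPM in splenic C26, against 50.4, 54.1, 57.9 and 54.8 CPM in sham. In subcutaneous C26 Dnajc3 was at 72.5, 65.0, 47.8 and 63.1 CPM, against 51.8, 52.6, 46.2 and 47.3 CPM in control. Only splenic C26 replicate 4 left the sham range upwards, and subcutaneous C26 replicate 3 lay within the control range. The log2 fold change of Dnajc3 was 0.08 ± 0.13 in splenic C26 against sham (95% interval -0.19 to 0.35, adjusted p = 0.603) and 0.33 ± 0.13 in subcutaneous C26 against control (adjusted p = 0.0436). The second call was lost in 19 of 26 alternatives, 13 of them the omission of 1 library, with adjusted p-values from 0.00184 to 0.571. Sdf2l1 (chr16:17130138-17132383, minus strand), a partner of BiP cochaperones, had the lowest counts, at 1.97 to 5.75 CPM in splenic C26 against 2.68 to 3.17 CPM in sham, and at 2.79 to 4.27 CPM in subcutaneous C26 against 2.54 to 3.09 CPM in control. Splenic C26 replicate 4 held the highest value of Sdf2l1, and the groups overlapped in both comparisons. Its log2 fold change was 0.19 ± 0.27 in splenic C26 against sham (95% interval -0.39 to 0.76, adjusted p = 0.579) and 0.31 ± 0.27 in subcutaneous C26 against control (95% interval -0.26 to 0.89, adjusted p = 0.346).

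Edem1 (chr6:108828641-108859356, plus strand), a lectin-like factor that hands misfolded glycoproteins to degradation, had the largest fold change of the 10 and was also among the most variable in tumour muscle. Edem1 stood at 17.9, 43.84, 17.9 and 62.7 CPM in splenic C26, against 9.12, 17.4, 11.6 and 11.3 CPM in sham. In subcutaneous C26 it stood at 57.8, 62.8, 20.04 and 58.6 CPM, against 13.9, 13.97, 9.04 and 9.22 CPM in control. Splenic C26 replicates 1 and 3 were barely above the highest sham library, replicates 2 and 4 far above it, and all subcutaneous C26 libraries lay above control with replicate 3 well below the other three. Edem1 rose on the log2 scale by 1.52 ± 0.42 in splenic C26 against sham (adjusted p = 0.00755) and 2.108 ± 0.42 in subcutaneous C26 against control (adjusted p = 0.00125).

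Herpud1 (chr8:94386438-94395377, plus strand), which organises the membrane complex that moves misfolded proteins out of the ER, passed the test in neither comparison. Its level was 208, 157, 141 and 128 CPM in splenic C26, against 142, 135, 135 and 153 CPM in sham, and 139, 147, 137 and 129 CPM in subcutaneous C26, against 135, 139, 131 and 114 CPM in control. Splenic C26 replicate 1, the library with the lowest Hspa5, Xbp1, Dnajb9 and Atf6 of its group, had the highest Herpud1, and replicate 4, the highest in Hspa5, Xbp1, Dnajb9 and Atf6, had the lowest. The log2 fold change of Herpud1 was 0.17 ± 0.14 in splenic C26 against sham (95% interval -0.12 to 0.46, adjusted p = 0.319) and 0.08 ± 0.14 in subcutaneous C26 against control (95% interval -0.21 to 0.37, adjusted p = 0.624).

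Pdia4 (chr6:47796141-47813430, minus strand) encodes ERp72, a protein disulphide isomerase, and was the member with the highest coefficient of variation in both tumour groups. Its level was 19.6, 9.61, 5.69 and 29.5 CPM in splenic C26, against 16.3, 22.1, 18.5 and 11.9 CPM in sham. In subcutaneous C26 Pdia4 was at 28.4, 20.3, 11.3 and 9.81 CPM, against 19.1, 10.7, 18.1 and 18.1 CPM in control. Tumour libraries lay both above and below the tumour-free ones, and that coefficient was 66.4% in splenic C26 and 49.4% in subcutaneous C26, against 25.0% in sham and 23.7% in control. For Pdia4 the log2 fold change was -0.10 ± 0.43 in splenic C26 against sham (95% interval -1.01 to 0.82, adjusted p = 0.863) and 0.08 ± 0.43 in subcutaneous C26 against control (95% interval -0.83 to 0.999, adjusted p = 0.886). With intervals this wide Pdia4 is not shown to be unaffected.

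**Figure D3:**
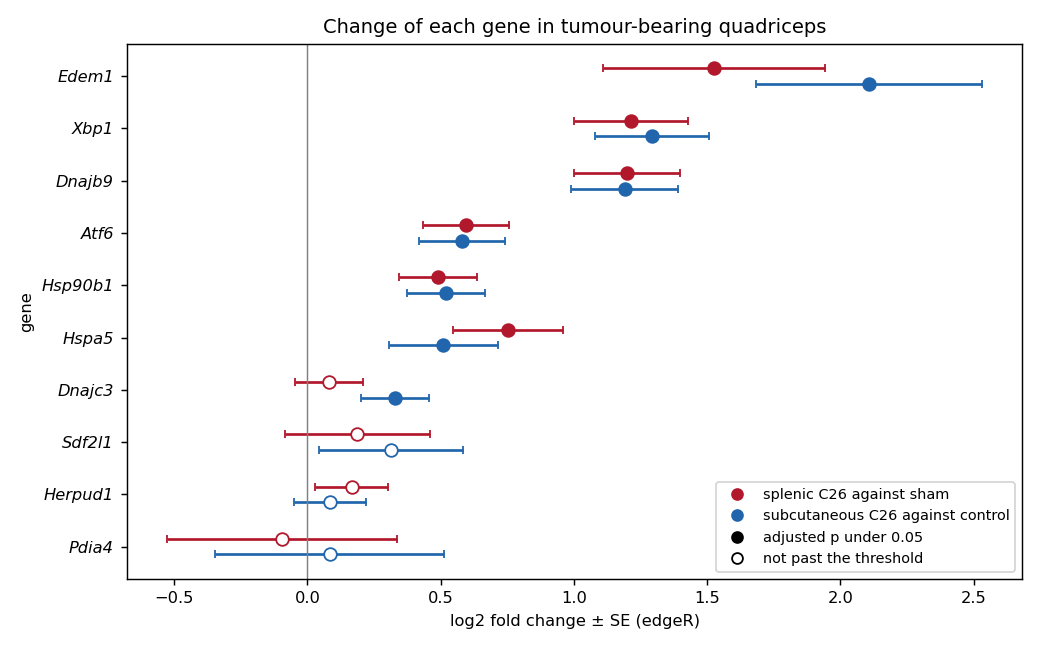
Log2 fold change of each of the 10 genes (points) with its standard error (bars), for splenic C26 against sham and for subcutaneous C26 against control, filled where the adjusted p is under 0.05 and open where it is not, with a line at 0. Edem1 has the largest values, 1.52 and 2.108, and the points of Herpud1, Sdf2l1 and Pdia4 are open in both comparisons.

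The rise was not of one size in all tumour libraries. Averaged over the 10 genes, the log2 difference from the mean of the matched tumour-free group was 0.26, 0.54, 0.31 and 1.03 in splenic C26 replicates 1 to 4 and 0.92, 0.84, 0.20 and 0.69 in subcutaneous C26 replicates 1 to 4. Splenic C26 replicate 4 had 9 members above every sham library, and subcutaneous C26 replicates 1 and 2 had 9 members above every control library. Splenic C26 replicates 1 and 3 and subcutaneous C26 replicate 3 had 6 such members each. Of all 13320 genes, 40.5% lay above every sham library in splenic C26 replicate 4, 35.3% in replicate 1 and 40.488% in replicate 3. The share above every control library was 39.9% in subcutaneous C26 replicate 1, 38.8% in replicate 2 and 38.2% in replicate 3. In splenic C26 replicate 3 Edem1, Sdf2l1 and Pdia4 were low, at 0.57, -0.53 and -1.55, while Hspa5 was at 0.98 and Dnajb9 at 1.31. Splenic C26 replicate 3 also had the highest sum of neutrophil and marrow markers, 2505 CPM, and the part of those cells was not tested.

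**Figure D4:**
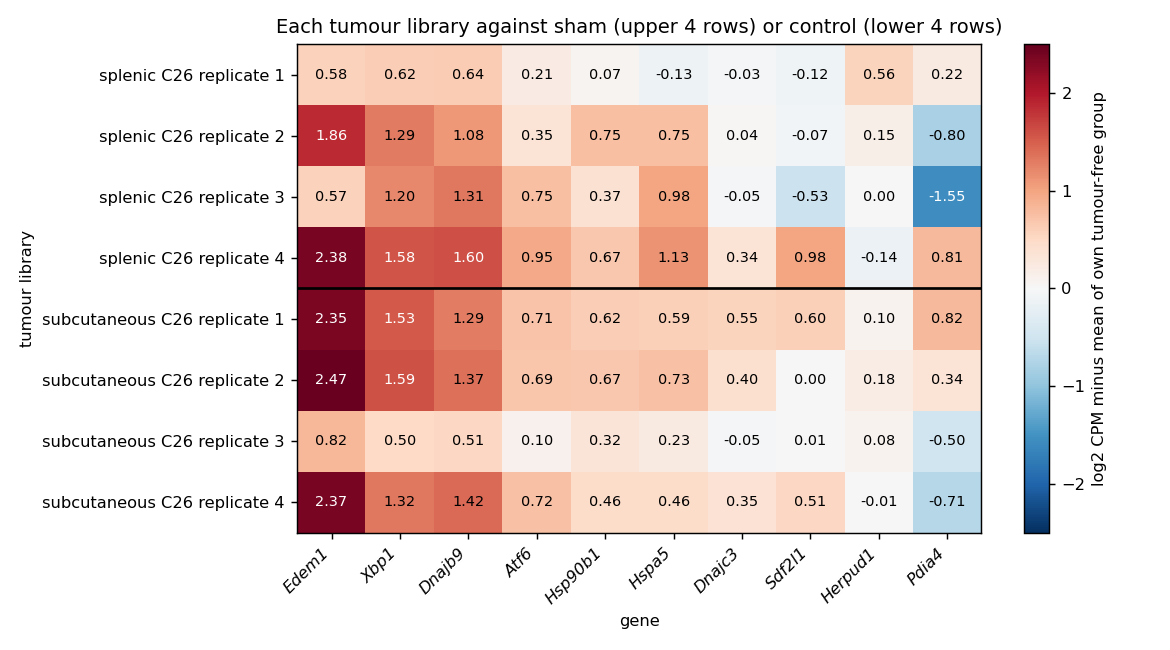
Log2 CPM of each of the 10 genes (columns) in each of the 8 tumour libraries (rows), less the mean of sham for splenic C26 and of control for subcutaneous C26, as a colour scale with the values printed. Splenic C26 replicate 1 and subcutaneous C26 replicate 3 are the palest of their groups over Xbp1, Dnajb9, Atf6 and Hspa5, and Pdia4 changes sign between libraries.

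The tumour-free groups and the sites of injection were then compared. In sham against control 0 of the 10 genes passed edgeR's test, 0 had an unadjusted p under 0.05 and 0 passed DESeq2, with log2 fold changes from -0.05 to 0.13. Over all genes 0.00% were higher and 0.00751% lower in sham by edgeR, 285 of 13320 genes had an unadjusted p under 0.05 and 0.438% passed DESeq2. The test of the difference between the tumour effects, splenic C26 minus sham less subcutaneous C26 minus control, passed 0 of 10 members by edgeR, 0 at an unadjusted p under 0.05 and 0 by DESeq2, beside 0.00% of all genes by edgeR, 6.39% at an unadjusted p and 0.649% by DESeq2. The estimates ran from -0.58 for Edem1 (95% interval -1.81 to 0.65) to 0.24 for Hspa5 (95% interval -0.37 to 0.86). Differences of those sizes between the 2 sites were not excluded by the intervals, and since each effect was taken within one prefix, a response to the tumour that differs with the prefix cannot be told apart from one that differs with the site.

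Levels can be compared between genes only per length, and the deposited log2 values differ from log2 CPM by a constant per gene, read here as the length the authors used in kilobases. They were turned back to the linear scale as means of 4 libraries. In sham the order was Hspa5 83.4, Herpud1 75.6, Hsp90b1 61.0, Xbp1 32.5, Dnajb9 27.2, Dnajc3 10.5, Atf6 7.16, Pdia4 6.96, Sdf2l1 2.66 and Edem1 2.12 CPM per kilobase. Neighbours whose libraries overlapped in sham were Hspa5 with Herpud1, Atf6 with Pdia4 and Sdf2l1 with Edem1. In splenic C26 Xbp1 stood at 75.4 and Dnajb9 at 62.3 CPM per kilobase, beside Hsp90b1 at 85.6 and Herpud1 at 84.8, and of all neighbours in that order only Dnajb9 and Dnajc3 did not overlap. In subcutaneous C26 Edem1 stood at 8.51 CPM per kilobase, with libraries that overlapped those of Pdia4 at 7.07, and Sdf2l1 stood at 3.19, against 1.98 for Edem1 in control, where it was the lowest of the 10 and overlapped with Sdf2l1. Per length, the libraries of Xbp1 overlapped with those of Hsp90b1 in both tumour groups, and lay below them without overlap in sham and in control. The order depends on the lengths used. With CPM divided by GENCODE exonic length, a setting added after the values were seen, Herpud1 came first in sham at 60.6 and Hspa5 second at 51.6 CPM per kilobase, without overlap, and Pdia4 at 7.17 stood before Atf6 at 5.78, with overlap. Xbp1 against Hsp90b1 read the same with these lengths, with overlap in both tumour groups and none in sham or control.

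Further lists of genes of the same system, 5 in all, were read beside the members, by counts of genes that passed the test and by median. Of the ER-associated degradation list, 29 of 34 genes were measured, 18 (62.1%) rose and 3 (10.3%) fell in splenic C26 against sham with a median log2 fold change of 0.63, and 18 (62.1%) rose and 2 (6.90%) fell in subcutaneous C26 against control with a median of 0.55. Over all genes these shares were 28.1% and 23.9% in splenic C26 and 27.0% and 23.1% in subcutaneous C26. Herpud2, the paralog of Herpud1, rose to 145 ± 37.2 CPM in splenic C26, against 50.05 ± 2.37 CPM in sham (SD, n = 4 each), a log2 fold change of 1.53 ± 0.19, and by 1.596 ± 0.19 in subcutaneous C26 against control, with adjusted p-values of 7.34e-05 and 6.02e-05. Nploc4, a cofactor of the p97 segregase that pulls proteins from the ER membrane, rose by 2.148 ± 0.34 and 1.91 ± 0.33 on the log2 scale in splenic C26 against sham and in subcutaneous C26 against control, Aup1 by 1.02 ± 0.16 and 1.03 ± 0.16, and Fam8a1, a cofactor of the ubiquitin ligase HRD1, by 0.91 ± 0.20 and 1.32 ± 0.20. The genes that fell were Rnf5 and Rnf139 in both and Edem3, a relative of Edem1, in splenic C26. Without subcutaneous C26 replicate 2, 11 in place of 18 rose in the subcutaneous comparison, where 0 fell without control replicate 1 and 1 in place of 2 fell in 10 further omissions of 1 library.

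Of the folding enzymes and chaperones other than the members, 28 of 31 were measured. In splenic C26 against sham 7 (25.0%) rose, near the 28.1% of all genes, and 2 (7.14%) fell, with a median of 0.19. In subcutaneous C26 against control 14 of 28 rose, beside 27.0% of all genes, and 3 (10.7%) fell, with a median of 0.31. The glycoprotein folding sensor Uggt1 rose by 1.13 ± 0.18 in splenic C26 against sham (adjusted p = 0.000242) and by 1.32 ± 0.18 in subcutaneous C26 against control (adjusted p = 0.0001), both on the log2 scale. The lectin chaperone Canx rose by 0.98 ± 0.23 and 1.18 ± 0.23, and P4hb, the prototype of the isomerase family that holds Pdia4, by 0.81 ± 0.18 and 1.14 ± 0.18. The prolyl isomerases Fkbp7 and Fkbp14 fell in both comparisons, and Txndc5 in the subcutaneous one, beside the lower fibroblast markers given with the libraries, whose part was not tested. The count of rises depended on single libraries, being 11 in place of 7 without splenic C26 replicate 1, and 9, 9 and 8 in place of 14 without control replicate 1, control replicate 3 and subcutaneous C26 replicate 2. Falls in splenic C26 were 0 without sham replicate 2, sham replicate 3 or splenic C26 replicate 2, and 1 without splenic C26 replicate 3.

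A list of genes that bring proteins into the ER and process them there had 32 of 35 genes measured. It holds the signal recognition particle and its receptor, the translocon, the Ssr genes, signal peptidase and oligosaccharyl transferase. In splenic C26 against sham 11 (34.4%) rose, beside 28.1% of all genes, and 2 (6.25%) fell (median 0.14). In subcutaneous C26 against control 14 (43.75%) rose, beside 27.0% of all genes, and 1 (3.13%) fell (median 0.26), or 8 rose without subcutaneous C26 replicate 2. Sec62, a subunit of the post-translational translocon, rose by 0.61 ± 0.10 and 0.84 ± 0.10 on the log2 scale in splenic C26 against sham and in subcutaneous C26 against control. Spcs3, a signal peptidase subunit, rose by 1.72 ± 0.36 and 2.12 ± 0.36, Stt3b, a catalytic subunit of the oligosaccharyl transferase, by 1.33 ± 0.25 and 1.32 ± 0.25, and Srp68, of the signal recognition particle, by 1.29 ± 0.22 and 1.27 ± 0.22. Ostc fell in both comparisons and Sec61a2 in splenic C26. Falls in splenic C26 were 0 without splenic C26 replicate 4, 4 without subcutaneous C26 replicate 3, and 1 without sham replicate 1, 3 or 4, splenic C26 replicate 2 or 3, or control replicate 3. Falls in subcutaneous C26 were 3 without splenic C26 replicate 1 or subcutaneous C26 replicate 3.

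Sensors and regulators, 15 of 15 measured, moved both ways, 6 (40.0%) higher and 4 (26.7%) lower in splenic C26 against sham (median -0.05) and 7 (46.7%) higher and 6 (40.0%) lower in subcutaneous C26 against control (median -0.10), where all genes had 28.1% higher and 23.9% lower, and 27.0% higher and 23.1% lower. Without control replicate 3, 3 in place of 6 fell in the subcutaneous comparison. Ern1, which encodes IRE1, stood at 35.2 ± 13.7 CPM in splenic C26 against 10.3 ± 1.04 CPM in sham, a log2 fold change of 1.77 ± 0.30 (adjusted p = 0.00037), and at 33.1 ± 14.3 CPM in subcutaneous C26 against 12.05 ± 1.47 CPM in control, 1.46 ± 0.29 (adjusted p = 0.00122). Rtcb, the ligase that joins the exons of Xbp1 after IRE1 has cut it, rose by 0.65 ± 0.12 in splenic C26 against sham and by 0.57 ± 0.12 in subcutaneous C26 against control, and the transcription factor Yy1 by 0.80 ± 0.12 and 0.97 ± 0.12. Creb3l1 and Creb3l2, membrane-bound relatives of Atf6, fell in both, as did Nfyb and Wfs1, and Eif2ak3, which encodes PERK, and Nfyc fell in the subcutaneous comparison.

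The list of the PERK and ATF4 arm, 14 of 14 measured, includes Eif2s1, which encodes eIF2 alpha itself. It had 9 genes (64.3%) higher and 1 (7.14%) lower in splenic C26 against sham (median 0.94). In subcutaneous C26 against control 8 (57.1%) were higher and 1 (7.14%) lower (median 0.89). Of all genes 28.1% and 27.0% were higher. Ppp1r15a, which encodes GADD34 and brings a phosphatase to eIF2 alpha, reached 155 ± 88.9 CPM in splenic C26 against 21.2 ± 1.29 CPM in sham and 111 ± 44.1 CPM in subcutaneous C26 against 26.04 ± 1.09 CPM in control, log2 fold changes of 2.87 ± 0.37 (adjusted p = 8.22e-05) and 2.09 ± 0.36 (adjusted p = 0.00046). Cebpb rose by 1.99 ± 0.28 and 2.09 ± 0.28 and Nfe2l2, the factor of the oxidative stress response, by 0.98 ± 0.14 and 1.27 ± 0.14 in the same order. Another 4 genes of the list in splenic C26 and 5 in subcutaneous C26 passed the test in neither direction. The gene that fell was Ddit3, which encodes CHOP, a factor linked to cell death under ER stress. It stood at 4.60 ± 0.471 CPM in splenic C26 against 8.35 ± 1.06 CPM in sham, a log2 fold change of -0.86 ± 0.14 (adjusted p = 0.000298), and at 4.205 ± 0.268 CPM in subcutaneous C26 against 7.78 ± 0.742 CPM in control, -0.89 ± 0.14 (adjusted p = 0.000254). Ddit3 was thus lower in tumour muscle while Xbp1, Dnajb9, Edem1 and Ppp1r15a were higher. A second gene of the list fell in splenic C26 without splenic C26 replicate 2, and in subcutaneous C26 without splenic C26 replicate 2 or control replicate 4. None of the 5 lists had a gene past edgeR's threshold, or past that of DESeq2, in sham against control or in the difference between the tumour effects, and 2 and 4 genes of these lists had an unadjusted p under 0.05 there.

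**Figure D5:**
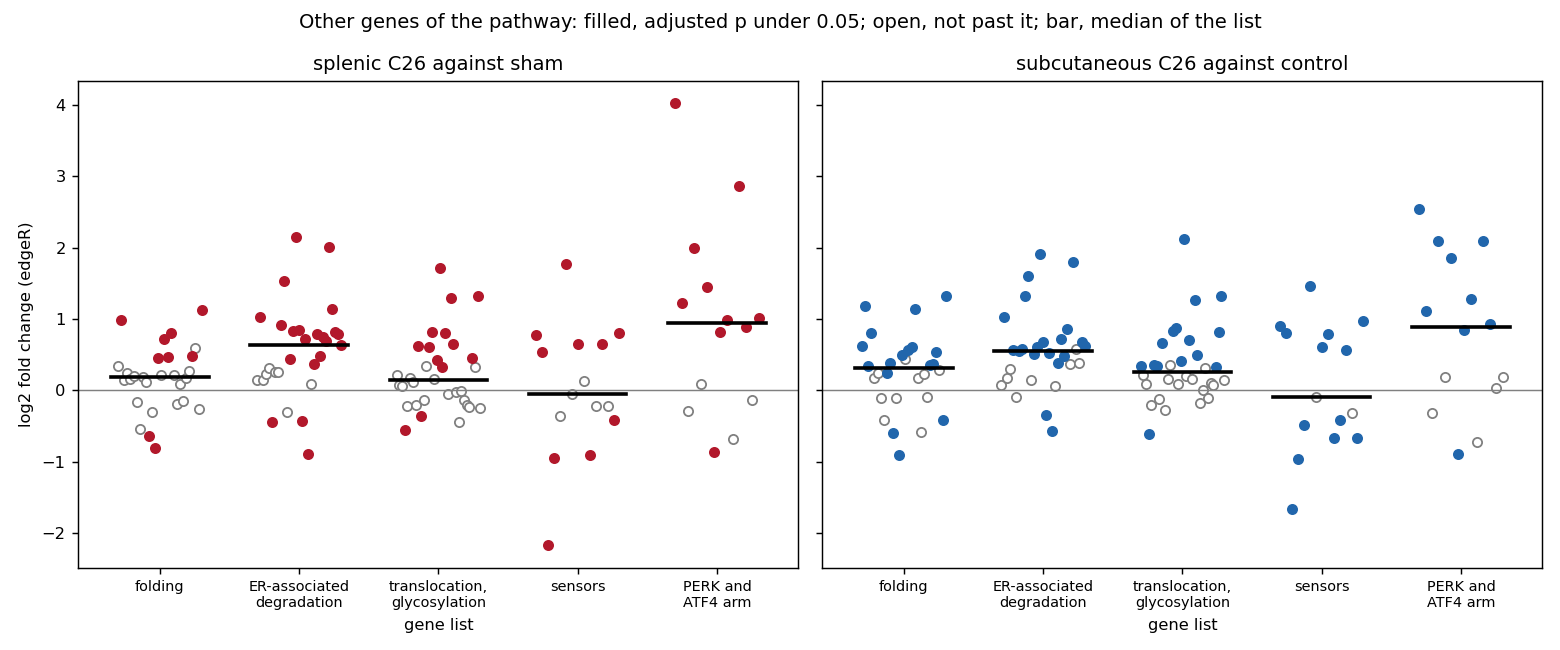
Log2 fold changes of all measured genes of the 5 further lists, for splenic C26 against sham (left) and for subcutaneous C26 against control (right), with 1 point per gene, filled where the adjusted p is under 0.05, and the median of each list as a bar. The degradation list and the list of the PERK and ATF4 arm have medians of 0.63 and 0.94 in splenic C26 against sham, and the 1 filled point below 0 in the second of them is Ddit3 in both comparisons.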

How the data were processed

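Quadriceps RNA of 16 libraries was sequenced as 75-base paired ends, and RNA isolation and sequencing were done together, per the labels' protocols. The authors deposited raw counts per gene made with STAR and featureCounts, per the labels, and the submitters' processing notes name FastQC, STAR, edgeR and mm10. Of the annotation, the strand setting and tool versions, nothing is stated, so they are not given here. The 4013 blank lines of the count table hold no gene and were left out. The second deposited table holds log2 values. They equal log2 CPM less 1 constant per gene and 1 per library, to a residual SD of 0.00316 over 9543 genes of at least 50 counts. The CPM of this check had no TMM scaling, which the constant per library would take up. TMM-scaled CPM of Hspa5 and its deposited value on the linear scale were 199 and 76.2 in splenic C26 replicate 1 (TMM factor 1.09). They were 247 and 94.6 in subcutaneous C26 replicate 3 (TMM factor 0.802), in nearly the same proportion. The deposited values are therefore read as TMM-scaled. Read as a length, the constant per gene had r = 0.79 with GENCODE exonic length across 9242 genes on the log2 scale, a median ratio to it of 0.709, and lay within 10% of it for 21.4% of genes.

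The 10 members, the other lists and the alternatives were chosen with earlier results of these data known. Counts were scaled by TMM and tested with edgeR 4.0.16 in R 4.3.3 (glmQLFit with robust = TRUE, a mean for each group, all 16 libraries, 12 residual degrees of freedom, Benjamini-Hochberg adjustment over 13320 genes, threshold 0.05). All genes were already above 0.5 CPM in 4 or more libraries, and filterByExpr removed 0. A standard error is the absolute log2 fold change divided by the square root of the F statistic, and intervals are 95% intervals. Fits were checked on simulated data with far fewer changed genes than these libraries, so scaling under such wide change was not checked. Every member is named, and of each other list the 3 genes with the smallest p per tumour comparison. Genes that fell are named from counts after their values were seen. Alternatives were scaling by RLE or by the upper quartile, no filter or 5 CPM as a filter, DESeq2 1.42.0, limma-trend (limma 3.58.1) on the deposited log2 values, 8-library fits, removal of abundant genes and omission of libraries. Coordinates are mm10, GENCODE M21, and promoters are RefSeq's.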

Additional observations from a re-analysis of the deposited data

Results flagged for a closer look

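The level of each of the 10 genes was searched in each group of 4 libraries for a highest or lowest library whose gap to the nearest other exceeded Dixon's 95% critical value as a share of the group's range. Chance gives about 1 in 20 groups, and 5 of 40 were found. Atf6 at 55.6 CPM and Edem1 at 20.04 CPM in subcutaneous C26 replicate 3 stood below the other libraries of that group, at 83.8 to 85.5 CPM and 57.8 to 62.8 CPM. Hsp90b1 at 157 CPM in sham replicate 1 stood below the others, at 171 to 172 CPM, and Hsp90b1 at 201 CPM in control replicate 4 stood above the others, at 163 to 168 CPM. Pdia4 at 10.7 CPM in control replicate 2 stood below the others, at 18.1 to 19.1 CPM.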

How the results depend on the processing

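No paired analysis was possible because the replicate numbers follow accession order and pair nothing. The count of members higher in splenic C26 against sham was 6 in all 16 omissions of 1 library and 5 to 6 in the 10 other alternatives. In subcutaneous C26 against control it was 7, between 5 and 7 when 1 library was left out, 3 under upper-quartile scaling, and at most 7 in the others. Members lower were 0 throughout both. Among the 10, the fit without a count filter repeated the reported fit, since filterByExpr had removed 0 genes. It is also counted among the 26 alternatives given for Hspa5 and Dnajc3. Edem1, Xbp1 and Dnajb9 passed in all alternatives of both comparisons, with Edem1 between 1.11 and 2.115 on the log2 scale in splenic C26 and between 1.85 and 2.37 in subcutaneous C26. Of 1026 recomputed member log2 fold changes 60 changed sign, none of them called in either fit. Upper-quartile scaling lowered the share of higher genes among all calls to 38.5% in splenic C26 against sham, beside 54.0%, and to 34.9% in subcutaneous C26 against control, beside 53.9%, the cause of which was not tested. Under it 5 folding, 11 degradation and 7 translocation genes rose in subcutaneous C26, in place of 14, 18 and 14. Falls in splenic C26 were 9 translocation and 7 sensor genes, in place of 2 and 4. Those in subcutaneous C26 were 6 translocation genes and 3 of the PERK and ATF4 arm, in place of 1 and 1. Of all genes 20.6% rose and 32.9% fell in splenic C26 under that scaling, and 18.1% rose and 33.9% fell in subcutaneous C26. Folding genes higher in splenic C26 were 11 by DESeq2 and 12 with either set of doubted libraries left out. Of all genes 3951 of 13245 were higher by DESeq2. The share was 28.2% without the libraries with transcripts of other tissues and 32.5% without the tumour libraries nearest the tumour-free ones. Counts of falls were small and moved with single libraries, between 0 and 4 in splenic C26 and between 0 and 6 in subcutaneous C26 over the omissions. Member promoters with an ERSE were 5 with 1 letter changed, beside 3.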

Other observations

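After each group's mean was subtracted, the members did not vary as one block over the 16 libraries. Dnajb9 and Xbp1 moved together (r = 0.92, and 0.49 without splenic C26 replicate 1 and subcutaneous C26 replicate 3), as did Dnajc3 and Xbp1 (0.85, and 0.84 without them). Herpud1 ran against Hspa5 (-0.77, and -0.34 without them), and Sdf2l1 had similar values with Pdia4 (0.62, and 0.68 without them), Edem1 (0.65, and 0.65) and Dnajc3 (0.64, and 0.67). In the 8 tumour-free libraries alone r was 0.07, 0.09 and -0.46 for Sdf2l1 with Pdia4, Edem1 and Dnajc3. It was 0.42 there for Dnajb9 with Xbp1, 0.81 for Dnajc3 with Xbp1 and -0.30 for Herpud1 with Hspa5. These correlations share libraries and scaling and are given as descriptions.

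Among 11524 genes ranked by the same measure, those most like Hspa5 were Grina (r = 0.97), Snrpa1 (0.97), Sod1 (0.97), Stt3b (0.96) and Surf4 (0.96). The closest member, Xbp1, ranked 934 with r = 0.81, and 178 with r = 0.68 without splenic C26 replicate 1 and subcutaneous C26 replicate 3. Without the same 2 libraries 0 of the 5 stayed in the first 5 ranks, with Grina at rank 6 and r = 0.87 and the others at ranks 22 to 47.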
